A study of Mus musculus with 6 samples.

Results

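Tissue factor and 3 other genes of the surface reactions of blood coagulation were followed in Melan-a cells, a permanent culture of black mouse melanocytes from strain C57BL/6. The cells had been transfected with siRNA that targets Dicer (siDicer) or with a control (siScr). The genes were F3, Thbd, Procr and F5, 4 of the 7655 genes that could be named in the table. Each had 1 transcript cluster, the set of array probes that is summarised into a single signal. The cluster identifiers cover chromosomes 1 to 4, so counts, ranks and lists below leave out genes of other chromosomes. The 4 genes were chosen by symbol, and F3 was known beforehand to have a large difference between siDicer and siScr cells in these arrays. The differences between siDicer and siScr cells for all 4 genes are therefore given as descriptions, without a test.

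The siDicer group and the siScr group had 3 arrays each, and the labels give passages 47, 54 and 56 of the cell line to replicates 1, 2 and 3 in both groups. All cells, controls included, were grown with 200 nM of the phorbol ester TPA and received 50 pmol of siRNA. The titles give 48 h and do not say from when, and the treatment protocol describes a medium change after 6 h and lysis 24 h after that. Dicer makes mature microRNAs out of their hairpin precursors. Its own transcript was not analysed here, and how far it fell in siDicer cells is thus not known from these values. The samples are called biological replicates of a single cell line, and p-values cover the spread between such cultures.

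Tissue factor, the product of F3, is a transmembrane receptor that binds factor VIIa, and the complex starts the extrinsic pathway of coagulation that ends in thrombin and fibrin. Thrombomodulin, the product of Thbd, binds thrombin at the cell surface and turns it towards activation of protein C, which the endothelial protein C receptor, the product of Procr, presents. Activated protein C cuts factor V and factor VIII in their active forms, and factor V, the product of F5, is the cofactor that factor Xa needs to make thrombin. Tissue factor is also known from melanoma, where it has been tied to metastasis, and it signals in cells through protease-activated receptors.

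The F3 promoter is shown because the medium contained TPA, which activates AP-1, and the human tissue factor gene is known to be induced through AP-1, NF-kB, Sp1 and Egr1. The Procr promoter is shown beside it because, among the promoters of F3, Procr and F5, it is the other one with an AP-1 match. Both are the 250 bases before the RefSeq start on build GRCm38.p6, 5′ to 3′ on the strand of the gene, with matches to the AP-1 motif TGANTCA in capitals.
F3, chr3:121723287-121723536, plus strand: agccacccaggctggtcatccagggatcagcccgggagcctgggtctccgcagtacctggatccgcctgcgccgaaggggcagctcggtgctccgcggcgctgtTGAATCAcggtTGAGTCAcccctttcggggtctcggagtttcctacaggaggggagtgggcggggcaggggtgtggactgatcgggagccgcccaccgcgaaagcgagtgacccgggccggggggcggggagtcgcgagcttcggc
Procr, chr2:155750967-155751216, plus strand: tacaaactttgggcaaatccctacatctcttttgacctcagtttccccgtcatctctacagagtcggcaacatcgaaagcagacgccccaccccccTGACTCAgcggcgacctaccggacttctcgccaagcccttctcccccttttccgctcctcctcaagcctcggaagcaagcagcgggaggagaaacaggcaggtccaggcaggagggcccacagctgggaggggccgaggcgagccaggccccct

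The F3 promoter held 2 AP-1 matches, at bases 146 to 140 and 135 to 129 before the start, and the Procr promoter held 1, at bases 154 to 148. The motif reads the same on both strands. Of 32851 mouse promoter windows of the same length, 6.75% held at least 1 match and 0.338% held at least 2. The F3 window also held 3 matches to GGGCGG, the core of an Sp1 site, searched on both strands, which 32.7% of windows held at least once, and none of them overlapped an AP-1 match. It held 0 matches to the E-box CACGTG, the kind of site that Mitf binds, which 6.02% of windows held, and 0 to TATAAA (12.4% of windows). The F5 window held 0 AP-1 matches and 1 Sp1 match. Promoters of F3, Procr and F5 were found in the RefSeq table. A promoter of Thbd was not found there, so it was not searched. Motifs of NF-kB and Egr1 were not searched. These matches are letters in a window and say nothing on binding in these cells.

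F3 had higher signal in siDicer cells at every passage. Its log2 signal (cluster TC0300001236.mm.1, chromosome 3) was 8.12, 8.62 and 8.25 in siDicer cells at passages 47, 54 and 56, against 7.47, 7.69 and 7.21 in siScr cells. The lowest siDicer array lay above the highest siScr array, so the groups did not overlap. The group means were 8.33 ± 0.261 in siDicer and 7.46 ± 0.241 in siScr cells (SD, n = 3), a difference of 0.87 on the log2 scale with a standard error of 0.157, or 1.83-fold. Groups with siDicer above siScr and no overlap were found in 6.68% of the 5358 tested genes, which are those above the filter on dim signal described under processing. Since arrays of whole cultures were measured, more cells with the transcript and more transcript per cell cannot be told apart.

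The F3 difference was not the same size at each passage. It was 0.65 at passage 47, 0.93 at passage 54 and 1.04 at passage 56, or 1.57-, 1.91- and 2.05-fold. The passages held 1 array of each group, so these differences have no replicate error of their own. With 1 array left out the overall difference was lowest at 0.73, when siDicer replicate 2 was missing, and highest at 0.99, when siScr replicate 2 was missing. With passage as a block the standard error was 0.0849.

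**Figure D1:**
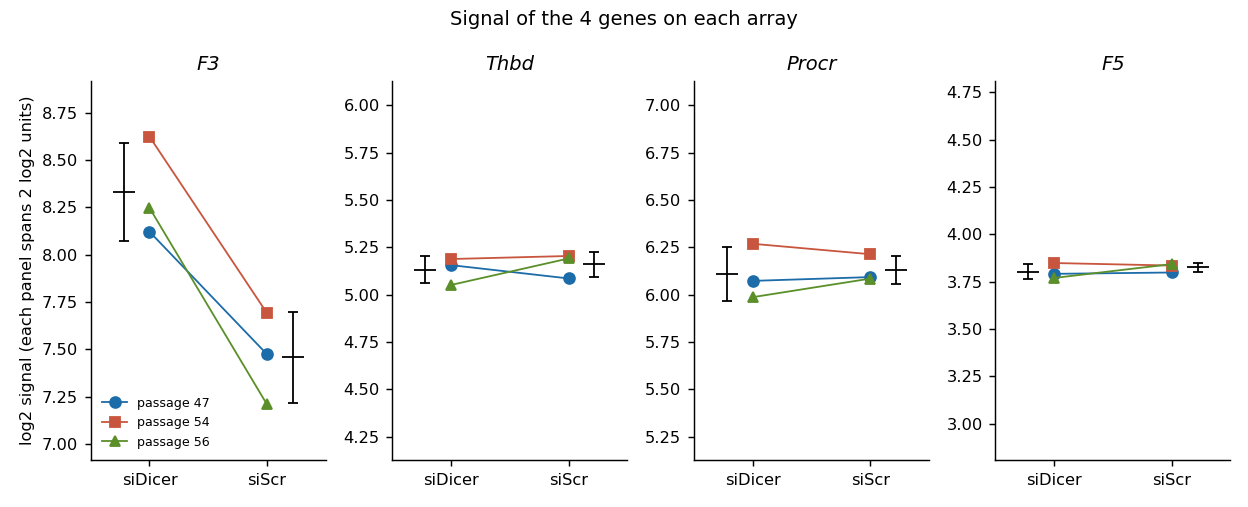
Log2 signal of F3, Thbd, Procr and F5 on each array, siDicer left of siScr, with arrays of the same passage joined and with the group mean and SD (n = 3) beside the points. Each panel spans the same width of 2 log2 units. F3 lay between 8.12 and 8.62 in siDicer cells and between 7.21 and 7.69 in siScr cells, while the groups of the other 3 genes overlapped.

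By size of difference F3 ranked 6 among the 5358 tested genes and 2 among the higher ones. A difference over 0.5 log2 at every passage was found in 5 of these genes, or 0.0933%, namely F3, Itga8 (integrin alpha 8), Thbs1 (the matrix protein thrombospondin 1), Ak5 (an adenylate kinase) and Snora41 (a small nucleolar RNA). The last 4 were named after their values were seen. F3 was also a gene of wide spread. Its SD within groups was 0.251, more than that of 95.9% of tested genes (median 0.0935), and after the passages were taken out it was 0.143, more than that of 86.7% (median 0.0726).

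**Figure D2:**
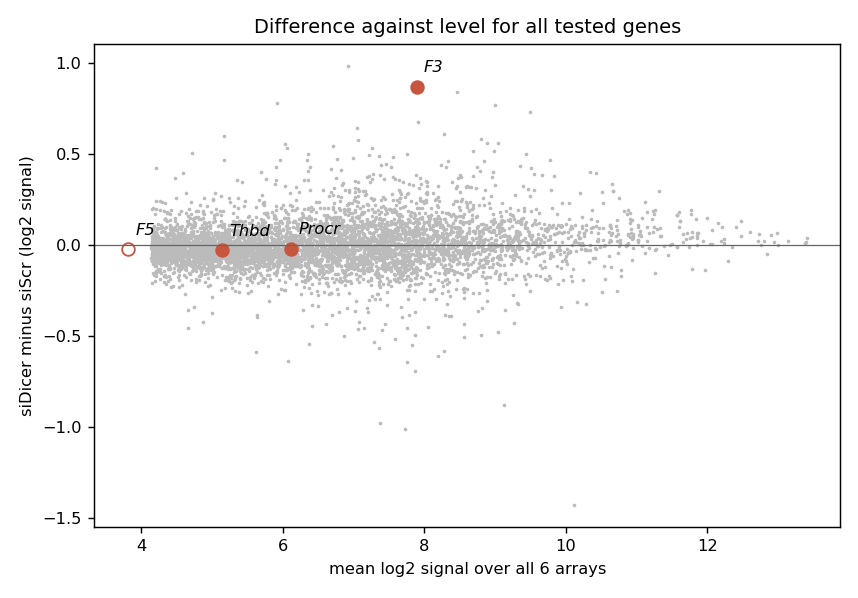
Difference in log2 signal, siDicer minus siScr, against the mean log2 signal over all 6 arrays for the 5358 tested genes (grey points) and the 4 coagulation genes (red). F3 stood at 0.87, with Thbd, Procr and F5 near 0. F5 is drawn open because its mean lay below the filter on dim signal.

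Thbd, the thrombin receptor that starts the protein C pathway, had nearly the same signal in both groups. Its log2 signal (cluster TC0200004808.mm.1, chromosome 2) was 5.16, 5.19 and 5.05 in siDicer cells at passages 47, 54 and 56, against 5.09, 5.20 and 5.19 in siScr cells. The group means were 5.13 ± 0.0715 in siDicer and 5.16 ± 0.065 in siScr cells (SD, n = 3). The groups overlapped, and the difference of -0.029 (standard error 0.064) was smaller than the SD within groups of 0.0683. The passages gave 0.070, -0.016 and -0.14, so the sign turned between passages, as it did in 63.9% of tested genes.

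Procr, the receptor that presents protein C to the thrombin and thrombomodulin complex, also overlapped between the groups. Its log2 signal (cluster TC0200002374.mm.1, chromosome 2) was 6.07, 6.27 and 5.99 in siDicer cells at passages 47, 54 and 56, against 6.09, 6.21 and 6.09 in siScr cells. The array of passage 54 was the highest in both groups. The group means were 6.11 ± 0.145 in siDicer and 6.13 ± 0.0722 in siScr cells (SD, n = 3), a difference of -0.021 with a standard error of 0.0856. At the passages the difference was -0.020, 0.055 and -0.098.

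F5, the cofactor of factor Xa, was dim. Its log2 signal (cluster TC0100001498.mm.1, chromosome 1) was 3.79, 3.85 and 3.77 in siDicer cells at passages 47, 54 and 56, against 3.80, 3.84 and 3.84 in siScr cells, and its mean lay above that of 24.6% of genes, under the filter at 4.15. Background was not measured, and no level of factor V transcript can be read at this height. The difference was -0.022 and the groups overlapped. Its sign turned between passages, as in 67.4% of all genes with the dim ones kept in. F3, Thbd and Procr passed the filter, which used the mean over all arrays.

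Passage was independent of the choice of these genes and could be tested. F3 signal was highest at passage 54 in both groups, by 0.44 above the mean of the other two passages in siDicer cells and by 0.35 in siScr cells. Averaged over the groups it was 7.80, 8.16 and 7.73 at passages 47, 54 and 56. This did not pass (limma moderated F-test, adjusted p = 0.136, from 0.0401 without siDicer replicate 3 to 0.492 without siDicer replicate 2). Thbd (adjusted p = 0.800) and Procr (adjusted p = 0.334, both limma) did not pass either, while 1.85% of tested genes did. In F3, Thbd and Procr, 3 of the 3 tested members, the array of passage 54 was the highest of its group in both groups, which was so in 21.3% of tested genes. The median over all clusters of an array was also highest at passage 54, 4.65 in siDicer and 4.68 in siScr cells, against 4.63 to 4.64 on the other arrays. In siScr cells Thbd was at 5.20 at passage 54 and at 5.19 at passage 56. Thbd and Procr went together over the arrays (Pearson correlation 0.738), so they are not separate cases. The order of arrays after median centring was not examined.

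Of the nearest named protein-coding genes to F3 on chromosome 3 in the RefSeq gene table, Slc44a3, a choline transporter-like protein, differed by -0.19 and Abcd3, a peroxisomal transporter, by -0.12. Neither passed (limma, adjusted p = 0.582 and 0.778), and each was lower in siDicer cells at all 3 passages. The gene 4930432M17Rik was dim and not tested. The neighbours of Thbd and Procr did not pass either. Cd93, a surface lectin next to Thbd, differed by 0.039, and Edem2, an endoplasmic reticulum degradation factor next to Procr, by 0.081 (limma, adjusted p = 0.920 and 0.902).

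The genes whose pattern over the 6 arrays was most like that of F3 were Fign, Fndc3b, Lamc1, Itga8 and Snap23. Fign is a microtubule-severing ATPase, Fndc3b a membrane protein with fibronectin domains, Lamc1 the laminin gamma 1 chain and Snap23 a SNARE of membrane fusion. Their Pearson correlations with F3 were 0.996, 0.989, 0.988, 0.983 and 0.972, the highest among 406 protein-coding genes whose range over the arrays was at least 0.5 log2. A correlation over 0.9 was found for 15 of the 406. These values describe arrays that share the siRNA contrast and the passages, and they carry no test. Itga8 differed by 0.73, 1.05 and 1.18 at passages 47, 54 and 56, and the other 4 genes differed by 0.36 to 0.46. Of the 5, promoters of Fign, Fndc3b, Itga8 and Snap23 were in the RefSeq table. Of these, 0 held an AP-1 match, near the share of 6.75% over all promoter windows.

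**Figure D3:**
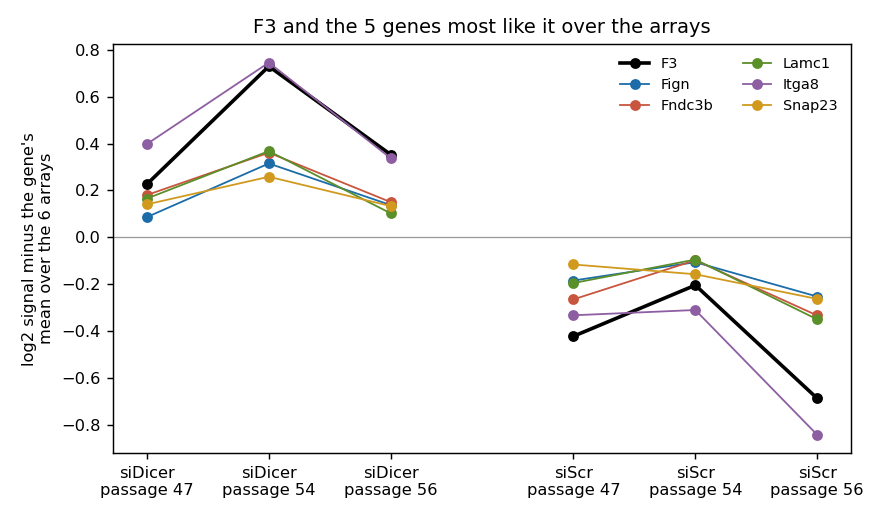
Log2 signal minus the gene's own mean over the 6 arrays, for F3 (thick black line) and the 5 genes with the highest correlation to it, with the siDicer arrays left of the siScr arrays and passages 47, 54 and 56 in order within each. All 6 genes lay above their mean on the siDicer arrays and below it on the siScr arrays, and the widest excursions were those of F3 and Itga8. The genes were chosen for this likeness.

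Other genes of coagulation, fibrinolysis, protease signalling, membrane phosphatidylserine, tissue factor handling and transcription of F3 or Thbd were read from 6 lists of 141 genes. Of these, 35 had a named cluster and 23 were tested, 11 higher and 12 lower in siDicer cells. Listed genes outside chromosomes 1 to 4 have no value here. With limma 0 of the 23 passed, with or without passage as a block (adjusted p from 0.321 to 0.999 without it and from 0.0856 to 0.999 with it). Over all tested genes 0.0187% passed without the block, and 1.74% passed with it. Their median difference was -0.00036, against -0.0092 over all tested genes, and 4 of the 23, or 17.4%, had an unadjusted p under 0.05, against 8.53% of all tested genes.

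Of 32 listed coagulation factors and inhibitors 8 had a cluster, and 7 of these were dim, namely the fibrinogen chains Fga, Fgb and Fgg, F13b (a subunit of factor XIII), Serpinc1 (antithrombin), C4bp (a binding protein for protein S) and Tfpi, the inhibitor of the tissue factor complex. Tfpi had a log2 signal of 3.23, 3.27 and 3.32 in siDicer cells at passages 47, 54 and 56, against 3.33, 3.35 and 3.40 in siScr cells. At every passage Tfpi was lower in siDicer cells, by 0.074 to 0.097, and the groups did not overlap, as in 6.88% of all 7655 genes for that direction. At this height the values give no level. F2, prothrombin, was the 1 tested gene of the list and differed by -0.050 (limma, adjusted p = 0.878).

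Among receptors and partners of protease signalling, Itgav had the smallest p. It encodes the integrin alpha V subunit, and its log2 signal was 9.70, 9.76 and 9.62 in siDicer cells at passages 47, 54 and 56, against 9.44, 9.50 and 9.23 in siScr cells. All siDicer arrays lay above all siScr arrays, as in 6.68% of tested genes. The difference of 0.30 ± 0.087 (SE) did not pass (limma, adjusted p = 0.321, and adjusted p = 0.0856 with passage as a block). S1pr1, a sphingosine phosphate receptor through which activated protein C acts on endothelium, differed by -0.16, with a value below 0 at every passage (limma, adjusted p = 0.715). Itga6, the integrin alpha 6 subunit, differed by 0.063. The thrombin receptor genes on other chromosomes were not analysed here.

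Ccn1, a matrix protein whose gene is induced by tissue factor and thrombin signalling in other cells, differed between passages. Its log2 signal was 10.99, 11.66 and 10.78 in siDicer cells at passages 47, 54 and 56, against 10.96, 11.40 and 10.63 in siScr cells. Passage 54 was highest in both groups, as it was for F3, and the passage effect passed (limma F-test, adjusted p = 0.0164). It was lost at adjusted p = 0.0536 without siDicer replicate 1, at 0.164 without siDicer replicate 2 and at 0.104 without siScr replicate 2. The siDicer minus siScr difference of Ccn1 was 0.15 ± 0.252 (SE) and did not pass (limma, adjusted p = 0.933).

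Phosphatidylserine is the lipid surface on which the tissue factor complex works. Genes of the flippase and scramblase families and genes that bind this lipid had 2 higher and 4 lower of 6 tested, with a median of -0.0052. The count mixes these kinds of gene and gives no direction for exposure of the lipid. The flippase Atp8b2 differed by 0.14, Atp9a by -0.052, the scramblase family gene Xkr7 by -0.064 and the flippase Atp11b by 0.033 (limma, adjusted p from 0.746 to 0.954). In tissue factor handling, Pdia3, a disulfide isomerase, was higher by 0.14 and Txn1, thioredoxin, lower by 0.17, with groups that did not overlap. Overlap was absent in 6.68% of tested genes with siDicer higher and in 7.78% with siDicer lower, and neither gene passed (limma, adjusted p = 0.576 and 0.523).

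The transcription factors known to act on F3 or Thbd had 3 higher and 4 lower of 7 tested, with a median of -0.057. Sp3, which binds Sp1 sites, had a log2 signal of 7.41, 7.61 and 7.62 in siDicer cells at passages 47, 54 and 56, against 7.79, 7.77 and 7.68 in siScr cells. Its groups did not overlap, with siDicer lower, as in 7.78% of tested genes. The difference of -0.21 ± 0.079 (SE) did not pass (limma, adjusted p = 0.528). Atf2, a partner of Jun in AP-1, differed by -0.12, Klf4, an inducer of thrombomodulin in endothelium, by -0.076 and the liver X receptor Nr1h3 by -0.057. Jun itself, the AP-1 subunit, was at 7.53 in siDicer and 7.50 in siScr cells (limma, adjusted p = 0.948), and its name was added after its value was seen.

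Of fibrinolysis genes 3 were tested, 2 higher and 1 lower, with a median of 0.046. Lrp8, a lipoprotein receptor, differed by 0.21, with 0.57, 0.030 and 0.044 as its values at the passages 47, 54 and 56. When siScr replicate 1 was left out it differed by 0.10 (limma, adjusted p = 0.666 over all arrays). S100a10, a partner of annexin A2 in binding plasminogen, differed by 0.046 and Lrp2, the receptor megalin, by -0.017.

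**Figure D4:**
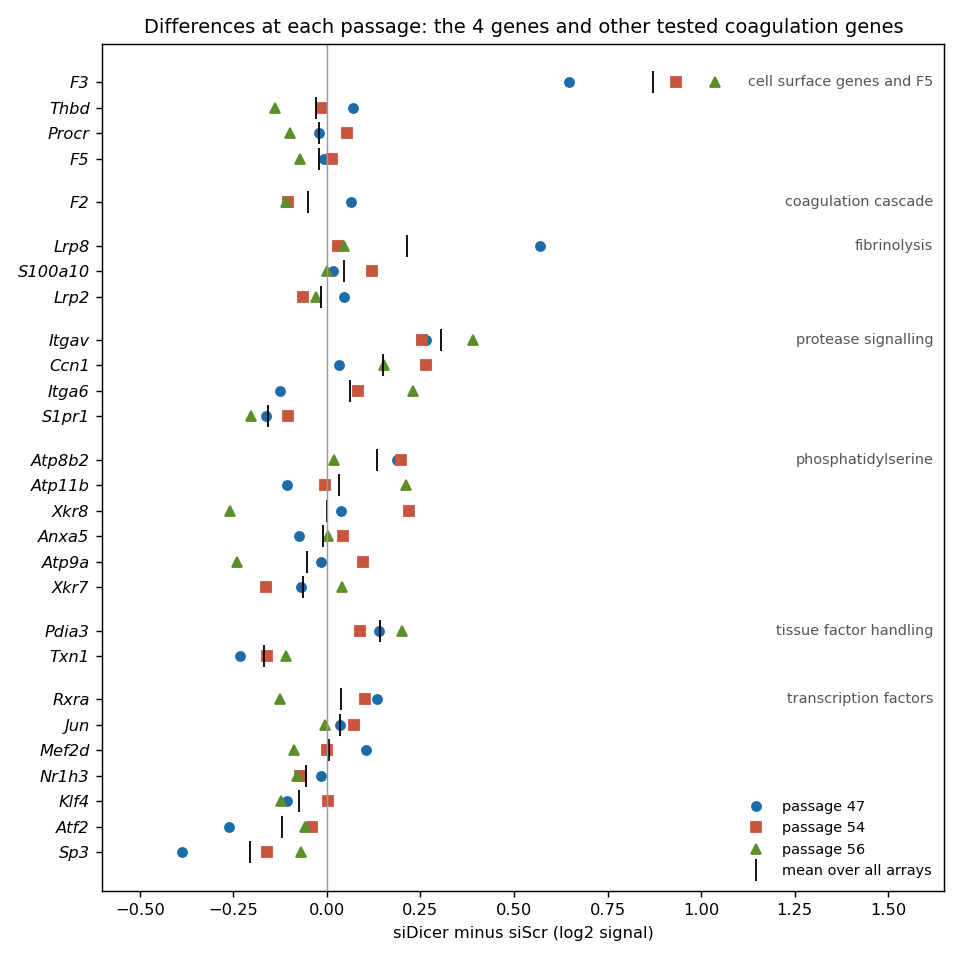
Differences, siDicer minus siScr, in log2 signal at passages 47 (circles), 54 (squares) and 56 (triangles), with the mean over all arrays as a bar, for the 4 coagulation genes and the 23 tested genes of the 6 lists. At the passages F3 lay between 0.65 and 1.04, and the other genes between -0.39 (Sp3, passage 47) and 0.57 (Lrp8, passage 47). By the mean over all arrays F3 was at 0.87, and the other genes ran from -0.21 to 0.30. F3 was known beforehand to have a large difference.

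The cells carried melanocyte transcripts, and markers of endothelium, the tissue in which Thbd and Procr are best known, were dim in part. Of 19 melanocyte markers 4 had a cluster, all above the filter, with means of 10.03 to 12.83. Of 11 endothelial markers with a cluster 5 were dim, namely Emcn, Cd34, Tek, Sele and Selp, and the mean over the list was 4.63 to 4.82 on siDicer and 4.64 to 4.75 on siScr arrays. The leukocyte list (9 genes, 5 dim) was at 3.87 to 3.96 on siDicer and 3.83 to 3.98 on siScr arrays. The keratinocyte list (12 genes, 6 dim) was at 4.42 to 4.48 and 4.37 to 4.53, and the fibroblast list (8 genes, 2 dim) at 5.91 to 6.17 and 5.90 to 6.15. Their highest gene means were 5.12 (leukocyte, Fcer1g), 6.90 (keratinocyte, Flg) and 10.75 (fibroblast, Fn1), the last within the range of the melanocyte markers. In these 5 lists 0 genes passed between siDicer and siScr cells with limma, 0 had an unadjusted p under 0.05, and the lists of the other cell types overlapped between the groups. Of the tested melanocyte markers 0 were higher and 4 lower in siDicer cells by their means (median difference -0.083). At passages 47, 54 and 56 Slc24a5 was at -0.30, -0.22 and -0.24 and Pax3 at -0.12, -0.094 and -0.14. Tyrp1 was at -0.11, -0.088 and 0.052 and Mlph at -0.039, 0.060 and -0.16, so both turned sign. Of the other cell types' tested markers, 1 endothelial gene was higher and 5 lower, 1 leukocyte gene higher and 3 lower, 2 keratinocyte genes higher and 4 lower, and 3 fibroblast genes higher and 3 lower. Over all tested genes 2438 were higher and 2920 lower. The part of these markers in the F3 difference was not tested. Eng, endoglin, had the highest mean of the endothelial markers, 7.65, and was the 1 tested endothelial gene that was higher in siDicer cells. It was at 8.80, 7.42 and 7.18 in siDicer cells at passages 47, 54 and 56, against 8.30, 7.20 and 7.02 in siScr cells, and differed by passage (limma F-test, adjusted p = 0.00298), in a different order of passages from F3.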

How the data were processed

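The deposited table holds log2 signals per transcript cluster from Affymetrix Clariom D mouse arrays, put on a common scale by the authors, with Affymetrix Expression Console named in the submitters' processing notes. The log2 scale was taken from the range of the values (array medians 4.63 to 4.68). For the normalisation method and the build behind the clusters nothing is stated, and scanner files were not used, so background was not measured and the number of arrays limits precision. Signals of different clusters are not compared as amounts of RNA.

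Of 16383 clusters on 6 arrays, 7710 had 1 gene, 275 several and 8398 none named here. Symbols were updated through the RefSeq table (GRCm38.p6), which changed 318. The cluster identifiers cover chromosomes 1 to 4 here. The cluster with the highest mean stood for a gene, and genes under the 30th percentile of mean signal (4.15) counted as dim and were not tested, so 5358 of 7655 were tested. The comparison of siDicer with siScr used limma 3.58.1 under R 4.3.3 (eBayes with a trend), two-sided, Benjamini-Hochberg adjusted over all tested genes at a threshold of 0.05. Passage was tested with a moderated F-test and siRNA as a covariate. The fits were tested on simulated data.

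Same-numbered samples share a passage in the labels, which pairs them. Deviations from the group means correlated at 0.418, 0.623 and 0.0701 for passages 47, 54 and 56. Members, lists and alternatives were chosen with earlier results of these data known. The naming rule took the members, up to 4 tested genes per list by smallest p, every coagulation factor with a cluster, the 5 genes most like a member and the nearest 2 protein-coding neighbours on each side. Of these, the genes most like Thbd and Procr and the neighbours of F5 are not described, and 1 neighbour of F3 is not reported here. Alternatives were quantile normalisation, median centring, other filters, the mean of a gene's clusters, passage as a block, array weights, no trend and leaving out arrays or passages.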

Additional observations from a re-analysis of the deposited data

Results flagged for a closer look

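The siDicer minus siScr difference turned sign between passages in Thbd, Procr and F5. In log2 signal it was 0.070, -0.016 and -0.14 for Thbd at passages 47, 54 and 56, it was -0.020, 0.055 and -0.098 for Procr, and it was -0.0071, 0.013 and -0.073 for F5. Each passage held 1 array of each group, so the difference between passages was not tested. The sign turned between passages in 63.9% of tested genes, and in 67.4% of genes when dim ones were kept in. For these 3 genes the lowest value was that of passage 56, where F3 had its highest, 1.04. How many of all genes had their lowest value there was not counted. The 3 genes also went together over the 6 arrays (Pearson correlations of 0.738 to 0.875), so they are not separate cases.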

How the results depend on the processing

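F3 kept its direction under every alternative run, from 0.73 without siDicer replicate 2 to 1.03 with array weights, and the largest value with 1 array left out was 0.99. With 1 array left out Thbd ran from -0.066 to 0.012, Procr from -0.10 to 0.040 and F5 from -0.045 to -0.0055. Without passage 56, with the replicate block, Thbd was at 0.027, Procr at 0.018 and F5 at 0.0031, and Procr was at 0.034 with array weights. Among uncalled values, leaving out 1 array moved the transcription factor median between -0.080 and -0.021 and the protease signalling median between 0.0037 and 0.18. Atp8b2 was at 0.059 without siDicer replicate 2, S1pr1 at -0.081 without siDicer replicate 3 and Abcd3 at -0.059 without siScr replicate 1. Passage as a block raised the genes called from 1 (0 higher, 1 lower) to 93 (61 higher, 32 lower), and array weights to 14 (7 and 7), and the calls with 1 array left out ran from 0 to 2. With the replicate block the count was 18 (8 and 10) without passage 54, 156 (105 and 51) without passage 56 and 1 (1 and 0) without passage 47. The count of genes that differed by passage was 99, and it was 202 after median centring, 58 with dim genes kept in, 172 with the 50th percentile filter and 13 to 303 with 1 array left out. The fibrinolysis median was 0.014 with dim genes kept in, 0.13 with the 50th percentile filter, 0.085 with array weights, -0.031 to 0.13 with 1 array left out, and with the replicate block 0.0082 without passage 54 and 0.068 without passage 56.

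Some small differences that had not passed turned sign. With the replicate block and without passage 56 Atp11b was at -0.056, Atp9a at 0.041 and Itga6 at -0.021, and without passage 54 Lrp2 was at 0.0074. With array weights Lrp2 was at 0.0099 and Xkr7 at 0.039. With 1 array left out Atp11b ran from -0.016 to 0.087, Atp9a from -0.13 to 0.017, Ccn1 from -0.11 to 0.35, Itga6 from -0.029 to 0.12, Lrp2 from -0.068 to 0.031, S100a10 from -0.031 to 0.13 and Xkr7 from -0.14 to 0.050. The cause was not tested. The replicate block changed no call of a gene named from the lists. The cascade list had 1 tested gene, so its median was not varied.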
